A study of Mus musculus with 12 samples.

Results

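The Ttr-rich libraries are 5 of 12 RNA-seq libraries of mouse frontal cortex in which Ttr, the transthyretin gene, reached at least 100 CPM. CPM is a gene's count divided by the total of its library and multiplied by 1000000. The other 7 libraries lay under that level. Poly(A) RNA was sequenced from 12 mice of 9 months, 1 library per mouse. The knockout group was APP/PS1/Hras-/-, with 3 males and 3 females, and it was set against APP/PS1, also with 3 males and 3 females. APP/PS1 mice carry transgenes that drive amyloid deposition, so every library came from an amyloid model. What drives the transgenes is not stated in the labels. Hras, which encodes a Ras GTPase, was knocked out on both copies in the knockout group. The Ttr-rich libraries were knockout male 2, knockout male 3, knockout female 1, APP/PS1 male 1 and APP/PS1 female 2, and they are listed in that order wherever 5 values are given below. They held 3 knockout and 2 APP/PS1 mice, 3 males and 2 females, against 3 knockout and 4 APP/PS1 mice, 3 males and 4 females, in the 7 others.

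Transthyretin carries thyroxine and, with retinol-binding protein, vitamin A. In the brain its mRNA is abundant in the epithelium of the choroid plexus, a folded, vascular tissue inside the ventricles that secretes cerebrospinal fluid and is no part of the cortex. This epithelium is also known for ion, water and folate transporters on its apical and basal membranes, for claudin-rich tight junctions, for klotho, and for the homeobox factor OTX2. The libraries were chosen on Ttr, so all differences between the Ttr-rich and the other libraries, and all correlations with Ttr, are given as descriptions without a test.

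The cortical label was checked on 1 gene, which was well expressed in all 12 libraries and does not show how much other tissue each held. Slc17a7, the vesicular glutamate transporter of cortical excitatory neurons, stood at 1083, 1197, 1117, 1433 and 1058 CPM in the Ttr-rich libraries, and at 970 to 1434 CPM in the 7 others (median 1183). Summed over a list of 10 cortical excitatory genes, APP/PS1 female 2 had 1664 CPM, under the 1923 to 2375 CPM of the 7 others. By a description of marker genes, the choroid plexus label applied to 4 of the 5. The markers were chosen with earlier results of these data known, and several follow Ttr, on which the libraries were chosen. Their counts are therefore no test of the label. Of 9 marker genes besides Ttr (Kcnj13, Kl, Folr1, Clic6, Cldn2, Kcne2, Tmem72, Otx2 and Aqp1), all 9 exceeded each of the 7 other libraries in knockout male 2, knockout female 1 and APP/PS1 female 2. In knockout male 3 it was 8 of 9, all but Kcnj13. In APP/PS1 male 1, the Ttr-rich library with the least Ttr, it was 3 of 9 (Folr1, Kcne2 and Aqp1), so this library is called Ttr-rich here and nothing more. Of all genes, 12.5%, 12.5%, 10.7%, 20.0% and 18.4% exceeded each of the 7 others in the 5 libraries.

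The RNA integrity number (RIN) averaged 8.44 ± 0.37 in the Ttr-rich libraries (SD, n = 5) and 8.41 ± 0.16 in the others (SD, n = 7), a difference of 0.0257 (two-sided exact permutation p = 0.926). Total counts averaged 16836200 ± 1141100 in the Ttr-rich libraries and 17611000 ± 2478600 in the others (SD, n = 5 and 7, exact permutation p = 0.53). Genes with at least 1 count averaged 23531 ± 446 and 23606 ± 464 (SD, n = 5 and 7, exact permutation p = 0.789). The smallest p that 5 against 7 can give is 0.00126, and the adjusted p over the 3 measures was 0.926 for each. Hras, the check of the genotype labels, lay at 19.1 to 23.2 CPM in knockout libraries and at 74.1 to 101 CPM in APP/PS1 libraries. No genotype label was contradicted by this gene, which does not bear on the sex labels.

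RefSeq held promoters for 8 of the 10 genes whose levels followed Ttr most closely. The sequences shown are the 250 bases before the start of the 4 closest of these 8, printed because they are the genes the pattern turns on. Each of the 8 was searched on both strands for TAATCC, the core of sites bound by OTX-family factors, and for GTTGCC, part of the X-box bound by RFX factors. Capitals mark a match. Sequences are from RefSeq on GRCm38.p6, 5′ to 3′ along the gene's strand, and where a gene has several starts, the one nearest to the start annotated in GENCODE was taken.
1500015O10Rik (chr1:43730352-43730601, plus strand): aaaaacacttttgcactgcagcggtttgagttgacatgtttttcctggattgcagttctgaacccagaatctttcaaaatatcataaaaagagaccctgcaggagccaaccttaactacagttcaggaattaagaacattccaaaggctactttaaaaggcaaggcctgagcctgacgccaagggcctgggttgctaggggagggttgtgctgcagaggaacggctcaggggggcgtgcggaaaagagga
Mfrp (chr9:44101520-44101769, plus strand): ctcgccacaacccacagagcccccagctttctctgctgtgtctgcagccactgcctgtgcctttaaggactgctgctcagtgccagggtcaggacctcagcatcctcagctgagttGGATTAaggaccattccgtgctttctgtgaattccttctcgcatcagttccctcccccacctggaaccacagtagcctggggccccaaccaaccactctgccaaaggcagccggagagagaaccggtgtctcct
F5 (chr1:164151585-164151834, plus strand): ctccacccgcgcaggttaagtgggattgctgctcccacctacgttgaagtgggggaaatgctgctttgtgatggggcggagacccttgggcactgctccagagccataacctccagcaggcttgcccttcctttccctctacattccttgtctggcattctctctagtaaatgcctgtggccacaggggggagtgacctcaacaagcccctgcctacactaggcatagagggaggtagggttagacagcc
Otx2 (chr14:48667645-48667894, minus strand): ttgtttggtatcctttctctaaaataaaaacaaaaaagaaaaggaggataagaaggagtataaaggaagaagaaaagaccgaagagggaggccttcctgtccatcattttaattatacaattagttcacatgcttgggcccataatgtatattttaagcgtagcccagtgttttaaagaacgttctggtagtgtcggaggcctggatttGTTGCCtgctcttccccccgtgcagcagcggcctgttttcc

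Mfrp held TAATCC on the opposite strand, starting at -134 from the gene's RefSeq start. Otx2 held GTTGCC at -41 and Kcne2, whose window is not shown, held it on the opposite strand at -109. The windows of 1500015O10Rik, F5, Slc4a5, Tmem72 and Calml4 held neither. The windows of Otx2 and Slc4a5 (chr6:83237125-83237374) lie wholly inside the genes as annotated in GENCODE, whose starts are at 48673819 and 83219828. Those of Mfrp, Tmem72 and Calml4 lie partly inside, past GENCODE starts at 44101729, 116716913 and 62858080. Among all 32851 RefSeq windows of this length, 6.25% held TAATCC and 10.4% held GTTGCC, so the matches are a description of these letters and of no binding.

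Ttr (ENSMUSG00000061808, GRCm38 chromosome 18, 20665280 to 20674321, plus strand) ranged from 3.52 to 2894 CPM. It stood at 486, 319, 544, 189 and 2894 CPM in the Ttr-rich libraries. In the 7 others it stood at 9.82, 56.5 and 3.52 CPM in knockout male 1, knockout female 2 and knockout female 3, and at 27.6, 29.4, 32.3 and 58.8 CPM in APP/PS1 male 2, APP/PS1 male 3, APP/PS1 female 1 and APP/PS1 female 3. The values nearest to the cutoff of 100 CPM were thus 189 CPM in APP/PS1 male 1 and 58.8 CPM in APP/PS1 female 3. Per kilobase of annotated exon, Ttr ranked 32nd, 58th, 25th, 166th and 6th of all genes in the 5 Ttr-rich libraries, and between 767th and 10044th in the others. In APP/PS1 female 2 it took 0.289% of all counts. Each sex and each genotype had libraries on both sides of the cutoff.

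**Figure D1:**
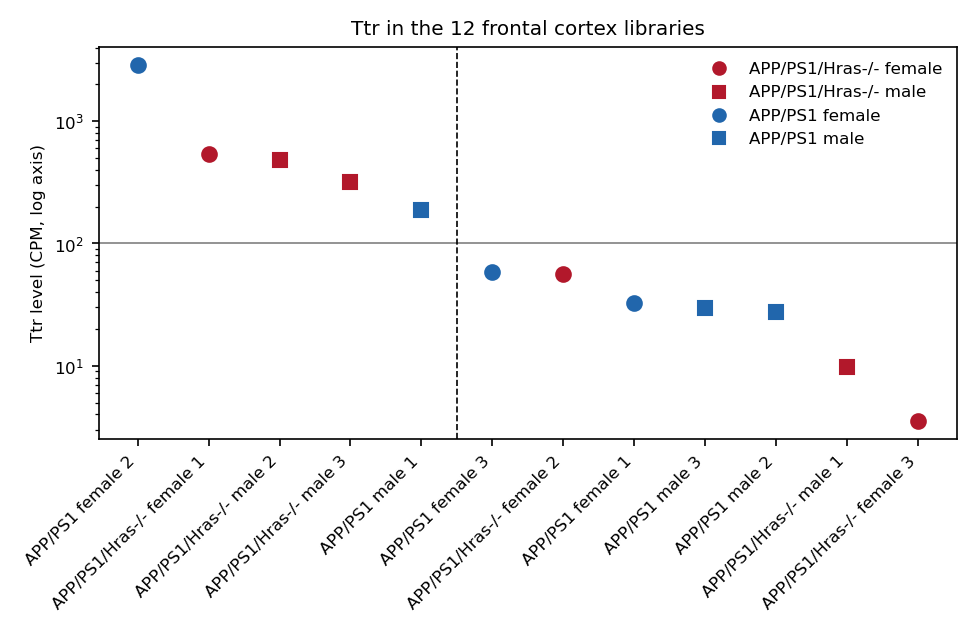
Ttr level of each library in CPM on a log axis, 1 point per library, in falling order, with the 5 Ttr-rich libraries left of the dashed line and the cutoff of 100 CPM as a grey line. APP/PS1 female 2 stands alone at 2894 CPM, and both genotypes (red knockout, blue APP/PS1) lie on both sides of the line.

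Beside Ttr, the genes with the largest rise without overlap were on the list of choroid plexus epithelium genes. Of 17306 other genes kept after a filter on low counts, 8 (0.0462%) were at least 2-fold higher on the log2(CPM + 0.5) scale with each Ttr-rich library above each other library, and all 8 were on the choroid plexus list. These were Mfrp (log2 difference 2.79), Slc4a5 (2.73), Kcne2 (2.40), Sostdc1 (2.23), Folr1 (2.20), Aqp1 (1.86), Wdr86 (1.14) and Krt18 (1.10). Without the fold threshold 15 genes (0.0867%) lay wholly above and 13 genes (0.0751%) wholly below, and no gene was both wholly below and at least 2-fold lower. Of the 15 wholly above, 5 were in no list, as were all 13 wholly below. The rule used this contrast, and the lists were chosen with earlier results of these data known, so nothing is read from these shares. In bulk tissue, more cells of a type and more RNA per cell cannot be told apart.

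The choroid plexus list held 47 genes besides Ttr, of which 43 passed the filter. Their mean was higher in the Ttr-rich libraries for all 43 that passed, against 51.7% of all genes, with Slc5a5 at a difference of 0.00. The median log2 difference was 0.97, against 0.0032 over all genes, and 21 of the 43 were at least 2-fold higher, against 32 of all genes (0.185%). Without APP/PS1 female 2 the median difference of the list was 0.588. A member could pass the filter through the Ttr-rich libraries alone, so the 43 are not the whole list. The 4 others were Slc16a8, Slco1a5, Lmx1a and Otx2os1, which had 68, 41, 58 and 13 counts over all 12 libraries.

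**Figure D2:**
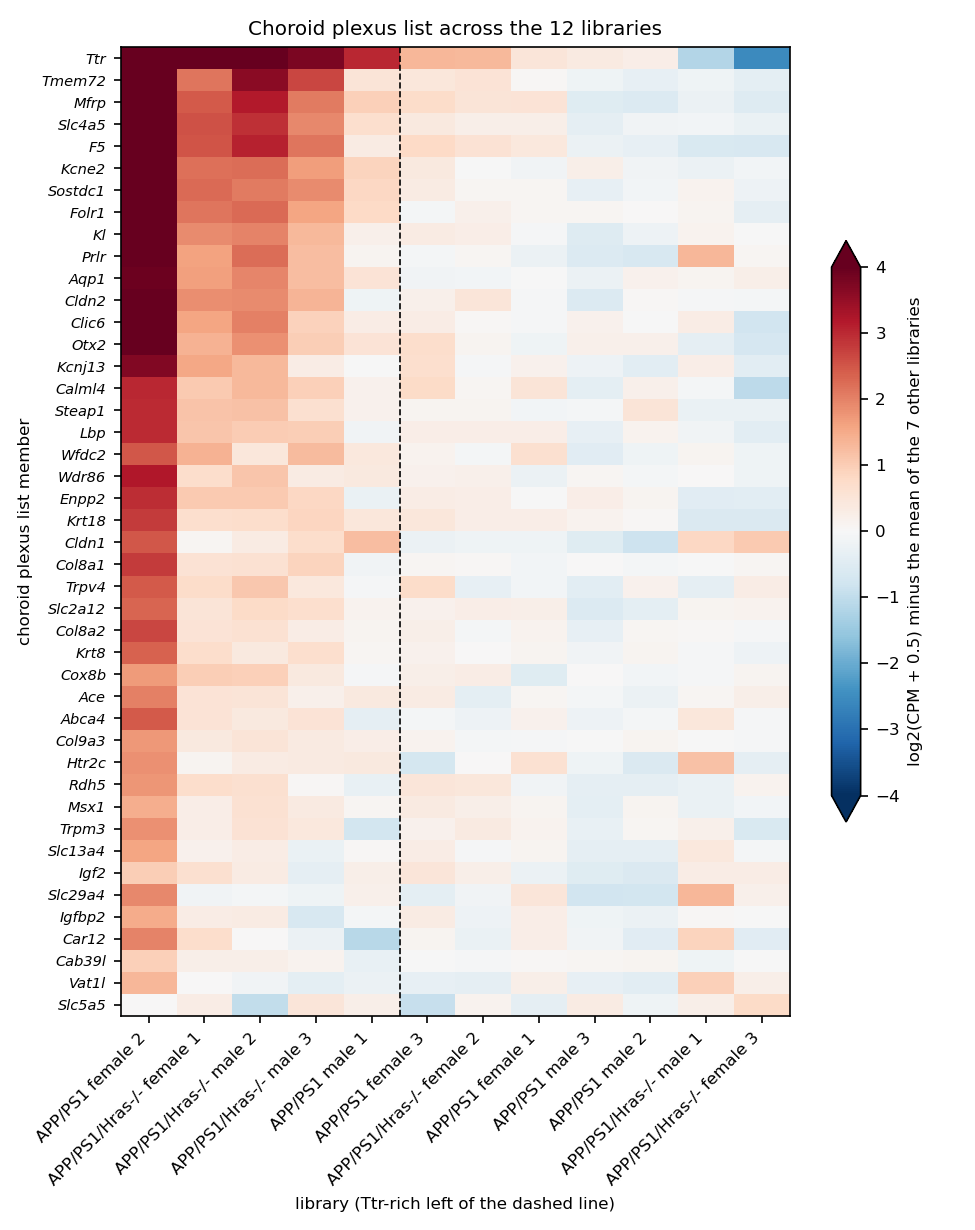
Choroid plexus list members that passed the filter, with Ttr on top, as log2(CPM + 0.5) minus the mean of the 7 other libraries, with columns in falling order of Ttr and values past 4 or -4 in the end colours. The members in the upper rows are high in APP/PS1 female 2, knockout female 1, knockout male 2 and knockout male 3, while APP/PS1 male 1 is near the level of the other libraries in most rows.

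Secreted and carrier proteins were higher on average in the Ttr-rich libraries, with a median log2 difference of 1.20 over 7 members, 5 of them at least 2-fold higher. Enpp2, which encodes autotaxin, a secreted lysophospholipase, stood at 451, 387, 452, 179 and 1666 CPM in the Ttr-rich libraries and at 158 to 265 CPM in the others (median 234). The 4 libraries besides APP/PS1 male 1 lay above all others, and APP/PS1 male 1 lay inside their range. F5, coagulation factor V, stood at 11.4, 5.62, 7.49, 1.24 and 54.8 CPM, against 0.385 to 1.93 CPM (median 0.684), with the same library inside the range. Sostdc1, a secreted antagonist of BMP and Wnt signals, stood at 4.36, 3.75, 4.99, 1.53 and 18.6 CPM, against 0.411 to 0.942 CPM (median 0.709), without overlap. Lbp, a lipopolysaccharide-binding protein, stood at 3.88, 3.81, 4.16, 1.47 and 16.6 CPM, against 1.10 to 2.08 CPM (median 1.86). Igfbp2, which binds insulin-like growth factors, was above the others in APP/PS1 female 2 (72.6 CPM) and just so in knockout male 2 (32.0 against at most 31.9 CPM).

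Channels and transporters move ions, water and solutes into and out of cerebrospinal fluid. Mean levels were higher for all 12 that passed the filter of 14 listed, with a median log2 difference of 0.91. Slc4a5, a sodium bicarbonate cotransporter, stood at 5.01, 2.25, 3.71, 0.648 and 34.3 CPM in the Ttr-rich libraries and at 0.0684 to 0.446 CPM in the others (median 0.174). Kcne2, an accessory subunit of potassium channels, stood at 2.85, 1.81, 2.82, 0.825 and 22.6 CPM, against 0.116 to 0.446 CPM (median 0.165). Aqp1, the water channel of the apical membrane, stood at 4.58, 2.62, 3.65, 1.41 and 19.3 CPM, against 0.616 to 1.05 CPM (median 0.811). None of these 3 overlapped between the groups. Kcnj13, an inward rectifier potassium channel, stood at 4.47, 1.94, 5.38, 1.47 and 25.7 CPM, against 0.980 to 2.68 CPM (median 1.43), so knockout male 3 and APP/PS1 male 1 lay within the others' range.

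The transporters with the highest mean CPM overlapped between the groups. Trpm3, a calcium-permeable channel also made by neurons, stood at 57.4, 51.1, 46.2, 22.8 and 136 CPM in the Ttr-rich libraries, against 24.9 to 48.8 CPM (median 41.6). Slc13a4, a sulfate transporter, exceeded the others' 13.5 to 23.9 CPM in APP/PS1 female 2 alone, at 53.2 CPM. Slc29a4, a monoamine transporter, did so likewise, at 30.7 CPM against 4.38 to 20.2 CPM. Slc5a5, the sodium iodide symporter, stood at 8.51, 24.4, 21.7, 20.5 and 17.6 CPM, against 8.87 to 29.8 CPM (median 19.1), and so did not follow the Ttr groups.

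Receptors and enzymes had a median log2 difference of 0.98 over 10 members, 5 of them at least 2-fold higher. Mfrp, a membrane frizzled-related protein, stood at 6.73, 2.87, 3.84, 1.06 and 31.0 CPM in the Ttr-rich libraries and at 0.0516 to 0.843 CPM in the others (median 0.174). Its locus overlaps that of C1qtnf5 on the same strand, for which the table lists 0 counts in all libraries. Folr1, the folate receptor that loads folate into cerebrospinal fluid, stood at 4.31, 2.50, 3.90, 1.24 and 18.6 CPM, against 0.275 to 0.644 CPM (median 0.548). Both genes were without overlap. Kl, the klotho gene, stood at 20.8, 12.6, 19.5, 5.66 and 113 CPM, against 3.29 to 6.20 CPM (median 4.79), and Prlr, the prolactin receptor, at 8.13, 3.81, 5.12, 1.47 and 43.1 CPM, against 0.671 to 4.12 CPM (median 1.24). In these 2 the libraries overlapped through APP/PS1 male 1 and, for Prlr, also through knockout male 3.

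The receptors and enzymes with the highest mean CPM were highest in APP/PS1 female 2. Htr2c, a serotonin receptor also made by neurons, was at 29.6, 30.6, 25.4, 31.4 and 85.2 CPM in the Ttr-rich libraries, against 14.4 to 53.9 CPM (median 21.2). Ace, angiotensin-converting enzyme, was at 30.5, 24.2, 30.8, 27.8 and 86.3 CPM, against 15.9 to 26.5 CPM (median 22.4), and 4 of the 5 exceeded all others. Car12, a membrane carbonic anhydrase, was at 17.8, 14.7, 28.5, 7.90 and 70.9 CPM, against 12.6 to 32.7 CPM (median 15.9). Cab39l, a scaffold of the LKB1 kinase, was at 36.0, 33.9, 36.0, 25.0 and 60.5 CPM, against 27.4 to 32.9 CPM (median 30.7).

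Junction, matrix and keratin genes had a median log2 difference of 0.90 over 8 members. Cldn2, a claudin that forms cation pores in leaky tight junctions, stood at 2.59, 1.62, 2.50, 0.236 and 14.2 CPM in the Ttr-rich libraries, against 0.0684 to 0.644 CPM (median 0.304). Col9a3, a chain of collagen IX, stood at 22.1, 19.8, 20.2, 18.5 and 52.9 CPM, against 14.7 to 16.9 CPM (median 15.1), without overlap, and Krt18, an epithelial keratin, at 0.862, 1.0, 0.832, 0.648 and 5.35 CPM, against 0.0550 to 0.644 CPM (median 0.411). For Krt18 the gap in APP/PS1 male 1 was thus 0.648 against 0.644 CPM, within counting error. Vat1l, a protein related to a synaptic vesicle membrane protein, exceeded the others' highest value of 90.9 CPM in APP/PS1 female 2 alone, at 118 CPM.

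Of the transcription factors, Otx2, which specifies the choroid plexus, stood at 2.32, 1.06, 1.60, 0.648 and 12.6 CPM in the Ttr-rich libraries, against 0 to 0.793 CPM (median 0.358). Msx1, a homeobox factor, stood at 4.2, 3.44, 3.20, 2.71 and 7.87 CPM, against 1.85 to 3.42 CPM (median 2.79). Among the remaining members, Tmem72, a membrane protein, had the largest mean difference of the whole list (2.95), at 11.9, 5.94, 4.03, 0.943 and 57.9 CPM, against 0.275 to 1.0 CPM (median 0.411). Wdr86, a WD-repeat protein, stood at 2.15, 1.06, 1.54, 1.12 and 10.8 CPM, against 0.557 to 0.930 CPM (median 0.755), without overlap. In these genes APP/PS1 female 2 was highest and APP/PS1 male 1 lay at or near the other libraries.

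Across the 12 libraries, 9 of 17306 genes (0.0520%) had a Pearson r of at least 0.9 between log2(CPM + 0.5) and log2 Ttr, and 8 of the 9 were on the choroid plexus list. The ninth, with the highest r, was 1500015O10Rik (0.934, Spearman rho 0.909), named Ecrg4 in RefSeq, the augurin gene, which encodes a secreted peptide precursor. It stood at 5.98, 4.06, 4.86, 1.71 and 30.3 CPM in the Ttr-rich libraries and at 0.220 to 2.03 CPM in the others (median 1.10). It was on none of the lists. Next were Mfrp (r = 0.931), F5 (0.928), Sostdc1 (0.920), Folr1 (0.919), Otx2 (0.914), Slc4a5 and Kcne2 (0.904 each), Tmem72 (0.902) and Calml4 (0.898, a calmodulin-like light chain of the brush border). The points share their library totals, and 1 gene, Glyctk, had an r of -0.92.

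These correlations rest in part on the gap between the groups. Over the 43 choroid plexus members the median r was 0.82 in all 12 libraries and 0.31 within the 7 others, where 29 of 43 were above 0, against 54.0% of all genes. Within the 7, r was 0.91 for Enpp2, 0.87 for Otx2 and for 1500015O10Rik, 0.85 for F5 and 0.77 for Tmem72. It was -0.75 for Aqp1, against 0.84 over all 12. The median r within the 7 was higher for oligodendrocyte (0.87), microglia (0.56), endothelial and mural (0.47) and astrocyte genes (0.44). It was also higher for genes of retinoid and thyroid hormone handling (0.38), and lower for the remaining lists. A positive r within the 7 was thus not particular to choroid plexus genes. Without APP/PS1 female 2, r over the other 11 libraries was 0.91 for Mfrp, 0.90 for F5, 0.90 for Folr1, 0.93 for Otx2 and 0.80 for Kl. Over the 43 members the median r was then 0.73, with 39 above 0 (90.7%), against 51.7% of all genes (median 0.02), and 8 were under 0.2. These were Igfbp2 (0.07), Slc13a4 (0.13), Slc29a4 (-0.28), Slc5a5 (-0.30), Htr2c (0.11), Car12 (-0.01), Cldn1 (0.01) and Vat1l (-0.46).

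**Figure D3:**
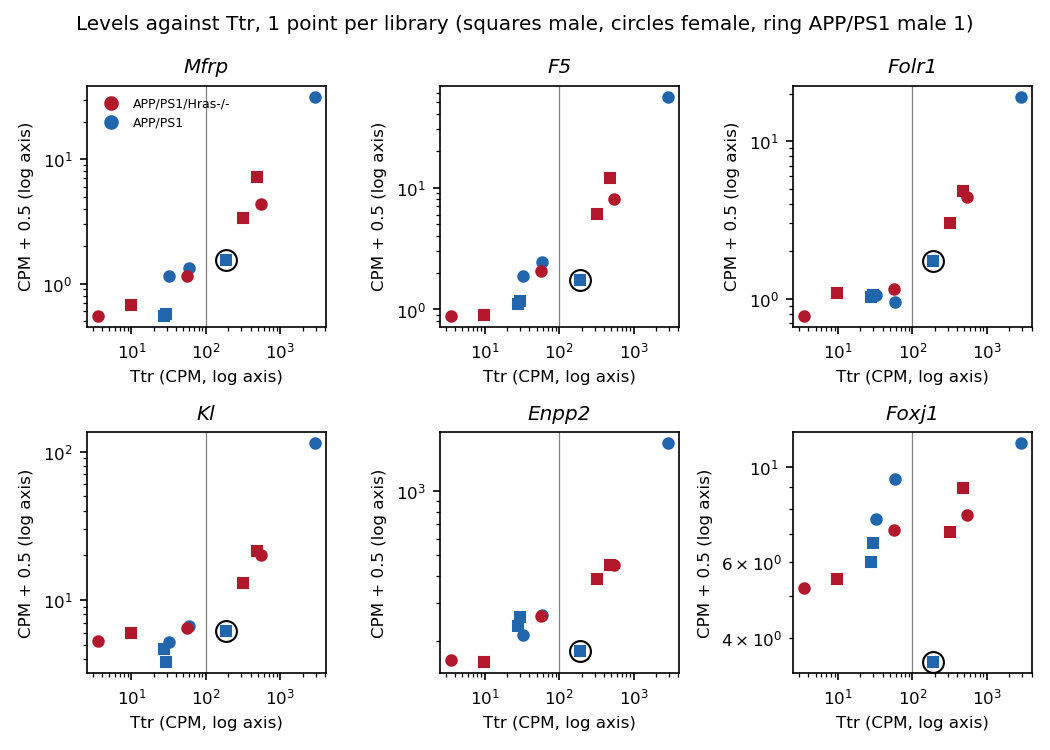
Levels of 6 genes (CPM + 0.5) against Ttr (CPM), both on log axes, 1 point per library, red knockout and blue APP/PS1, with the cutoff of 100 CPM as a grey line. Mfrp, F5, Folr1, Kl and Enpp2 climb with Ttr above the cutoff, the ringed library APP/PS1 male 1 lies low in F5, Kl and Enpp2, and Foxj1, a ciliary gene, spans 3.01 to 10.9 CPM right of the cutoff and 4.73 to 8.87 CPM left of it.

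For Kl, Enpp2 and Cldn2, picked as examples, 4 of the Ttr-rich libraries held similar amounts relative to Ttr and APP/PS1 male 1 held less. F5 was also lower in APP/PS1 male 1 but varied more among the 4. The excess of a gene was taken as its CPM minus the mean of the 7 other libraries, per 1000 CPM of Ttr excess. For Kl it was 35, 26.5, 28.4 and 37.7 in knockout male 2, knockout male 3, knockout female 1 and APP/PS1 female 2, and 4.50 in APP/PS1 male 1. For Enpp2 it was 505, 576, 450 and 505 in the 4, and -269 in APP/PS1 male 1, where Enpp2 lay under the mean of the others. For F5 it was 22.8, 16.1, 12.7 and 18.8 in the 4, and 1.53 in APP/PS1 male 1. For Cldn2 it was 4.94, 4.46, 4.2 and 4.83 in the 4, and -0.668 in APP/PS1 male 1.

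Some genes came closer to proportion in APP/PS1 male 1. The excess of Sostdc1 was 8.15, 10.8, 8.46 and 6.26 in the 4 and 5.54 in APP/PS1 male 1, and that of Folr1 was 8.36, 6.92, 6.62 and 6.33 in the 4 and 4.61 in APP/PS1 male 1. In all, 33 of the 47 members had a lower excess in APP/PS1 male 1 than in any of the 4. This count was not made over all genes, so it is not read as particular to choroid plexus genes. Some members went the other way, such as Ace (39.8 in APP/PS1 male 1, at most 22.7 in the 4) and Cldn1 (18.2 and at most 4.28). Others varied widely among the 4, such as Tmem72 (6.79 to 25.0). The 47 include members that failed the filter on low counts. APP/PS1 male 1 had the smallest Ttr excess, so dividing by it enlarges ordinary variation most there. Its Enpp2 level of 179 CPM, for example, lay within 1 SD of the 7 others (221 ± 45.6 CPM, SD). This library also had the lowest RIN, 7.8. Whether RIN or another property of the library plays a part was not tested.

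Per kilobase of exon, the excess in APP/PS1 female 2 was 2414 CPM for Ttr, 250 for Enpp2, 25.4 for Igfbp2, 19.0 for Kcnj13 and 14.9 for Clic6, an intracellular chloride channel protein. Ttr had the largest excess of the list on this scale, and Enpp2 came next.

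The libraries differed in how much else was raised. In APP/PS1 female 2, 97.7% of the 43 choroid plexus members lay above all 7 others, against 18.4% of all genes. In knockout male 2 and knockout female 1 it was 76.7% each, against 12.5% and 10.7% of all genes, and in knockout male 3 it was 67.4%, against 12.5%. In APP/PS1 male 1 it was 25.6% (11 members), against 20.0% of all genes, a share near the background.

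APP/PS1 female 2 also stood above the others for genes outside the choroid plexus list. Of 44 motile cilia members that passed the filter, 70.5% lay above all 7 others there, and of 22 leptomeningeal fibroblast members 72.7%, against 18.4% of all genes. In the remaining Ttr-rich libraries these shares ran from 2.3% to 13.6% and from 0% to 4.5%, against 10.7% to 20.0% of all genes. Hydin, a protein of the ciliary central pair, was at 5.82 CPM in APP/PS1 female 2 and Aldh1a2, a retinaldehyde dehydrogenase of the meninges, at 19.9 CPM, against at most 3.31 and 14.7 CPM in the 7 others. Of 19 endothelial and mural members, 47.4% were above all others in knockout male 2, against 12.5% of all genes. In APP/PS1 female 2 it was 31.6%, against 18.4%, and in the other 3 it was 5.3%, against 10.7% to 20.0%.

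Over the groups as a whole, lists of neighbouring cell types had medians near 0. The motile cilia list, with 44 of 48 members past the filter, had a median log2 difference of 0.04, with 25 members higher and 19 lower. Foxj1, the master regulator of motile cilia, stood at 8.46, 6.56, 7.23, 3.01 and 10.9 CPM in the Ttr-rich libraries and at 4.73 to 8.87 CPM in the others (median 6.16). Its r to log2 Ttr was 0.51 over all 12 libraries (rho 0.68) and 0.84 within the 7 others. Dnaaf3, an assembly factor of dynein arms, was its 1 member without overlap, at 1.56, 1.25, 1.28, 1.59 and 2.64 CPM, against 0.881 to 1.16 CPM (median 1.0). Cfap54, Rfx3, Rsph9 and Dnah5, the ciliary members with the highest counts besides, all overlapped, with log2 differences of -0.24, -0.14, 0.04 and -0.03.

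The ependyma list, 8 of 9 members past the filter, had a median of -0.08, the 22 leptomeningeal genes 0.00, the 19 endothelial and mural genes 0.04, and the border macrophage genes, 8 of 9, -0.09. Summed over the list, leptomeningeal genes gave 170 to 365 CPM in the Ttr-rich libraries and 158 to 293 CPM in the others, and no member of any of these lists was at 0 in every library. The highest members of the ependyma list were Nnat (neuronatin), at 117 ± 98.6 CPM against 117 ± 79.9 CPM, and S100a6, at 15.2 ± 2.28 against 15.0 ± 2.37 CPM (Ttr-rich against other, SD, n = 5 and 7).

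Globin genes and striatal genes had medians of opposite sign, and both overlapped between the groups. The 4 globin genes that passed, of 5 blood genes, had a median of 0.60. Hbb-bs, the highest, was at 2.37, 4.50, 1.92, 1.06 and 2.12 CPM in the Ttr-rich libraries and at 0.429 to 2.58 CPM in the others (median 1.37), and near-identical globin copies make such counts uncertain. The 16 striatal genes were lower in mean in all 16, against 8362 of 17306 genes, with a median of -0.44. Genes of 1 tissue vary together, so the 16 are not separate results. Their summed level was 531, 658, 627, 435 and 1041 CPM in the Ttr-rich libraries and 557 to 1367 CPM in the others. Pde10a, a phosphodiesterase of striatal projection neurons, was at 78.2, 101, 92.6, 49.8 and 140 CPM, against 127 to 248 CPM (median 134), and Adcy5, an adenylyl cyclase, at 142, 143, 151, 135 and 251 CPM, against 128 to 296 CPM (median 196). APP/PS1 female 2 overlapped the others for Pde10a.

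Neuronal and glial lists lay near 0, with medians of -0.04 for cortical excitatory neurons, -0.04 for astrocytes, 0.10 for oligodendrocytes and -0.08 for microglia. In APP/PS1 female 2 the summed level of the 10 cortical excitatory genes was the lowest of the 12 libraries, at 1664 CPM, against 1923 to 2375 CPM in the 7 others. Its sum of the 8 oligodendrocyte genes was also the lowest, at 3555 CPM, against 3636 to 7710 CPM in the 7 others. The part of these levels in the results on this library was not tested. Genes of retinoid and thyroid hormone handling, which serve the ligands of transthyretin, had a median of 0.08 over 13 members, 10 higher and 3 lower and none without overlap. Thra, a thyroid hormone receptor, averaged 655 ± 68.3 CPM in the Ttr-rich libraries and 652 ± 100 CPM in the others, and Dio2, which makes active thyroid hormone, averaged 73.6 ± 17.6 and 74.6 ± 9.94 CPM (SD, n = 5 and 7).

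**Figure D4:**
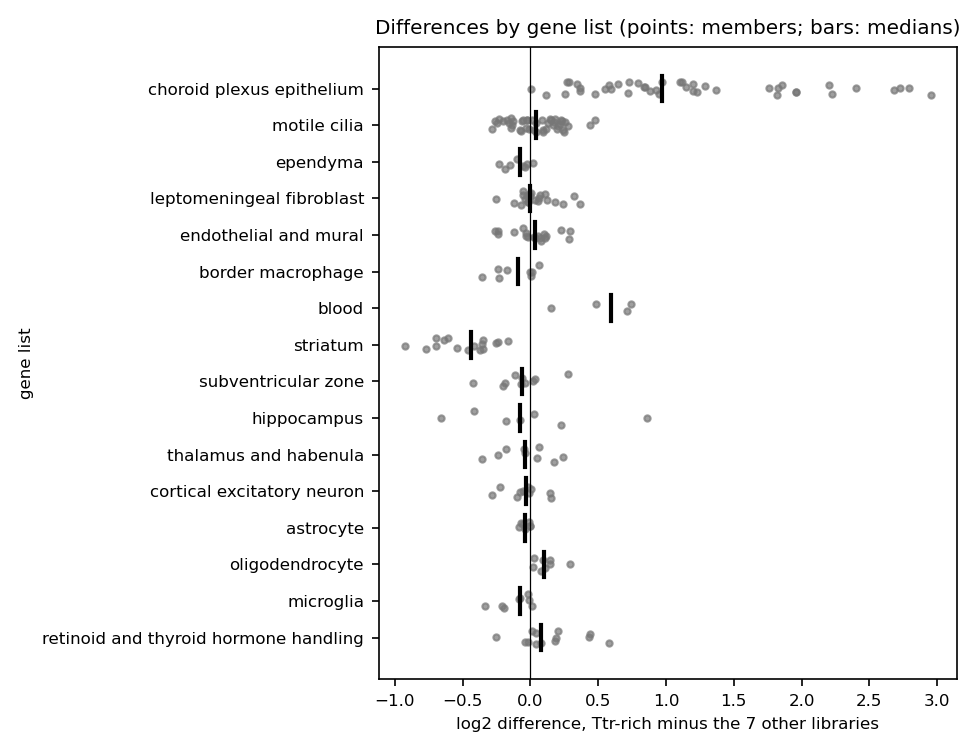
Log2 difference of the Ttr-rich minus the 7 other libraries for each list member that passed the filter (points), with the list median as a bar, for 16 lists and without Ttr. The choroid plexus list, in the top row, has a median of 0.97 and reaches 2.95, while 13 of the other lists have medians between -0.09 and 0.10, blood 0.60 and striatum -0.44.

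Genes in no list that did not overlap differed little. In the Ttr-rich libraries 5 such genes were wholly above, and the 3 that averaged 1 CPM or more were Mvp (major vault protein), Galk1 (galactokinase) and Dok5 (an adaptor of receptor kinases), with log2 differences of 0.32, 0.29 and 0.16. Mvp was at 14.7, 14.9, 14, 17.0 and 14.7 CPM, against 9.69 to 13.3 CPM (median 12.2). All 13 genes wholly below were in no list. The 10 with the largest negative differences (mean of 1 CPM or more) ran from -0.40 for Thg1l, a tRNA guanylyltransferase, to -0.11 for Fopnl, and included Kcnip2, a regulator of A-type potassium channels, at 122, 142, 142, 126 and 137 CPM, against 143 to 193 CPM (median 163), and Camk2a, the synaptic kinase, with a difference of -0.11.

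Of the 32 genes with a mean at least 2-fold higher, 11 were in no list. Of these, 6 had an r to log2 Ttr of at least 0.7, namely 1500015O10Rik, 2900040C04Rik, Drc7, Epn3, Prr32 and Slc24a5. Drc7, a part of the ciliary dynein regulatory complex, averaged 4.89 ± 4.84 CPM in the Ttr-rich libraries and 1.39 ± 0.358 CPM in the others (SD, n = 5 and 7). The remaining 5 were the Y-linked Ddx3y, Eif2s3y and Kdm5d, where 3 of 5 Ttr-rich and 3 of 7 other libraries were from males, and the pseudogenes Gm5905 and Gm13394, each called for genotype in at least 1 fit below. Their r to log2 Ttr lay between -0.05 and 0.19.

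The study's own question was what loss of Hras changes in amyloid cortex, and the Ttr groups cut across it. Ttr averaged 236 ± 245 CPM in knockout and 539 ± 1156 CPM in APP/PS1 libraries (SD, n = 6 each), and the log2 difference was -0.29 with a standard error of 1.88 (edgeR quasi-likelihood test, adjusted p = 0.9999). With sex in the model, 3 of 17307 genes (0.0173%) were called for genotype, Hras (-1.95), Gm5905 (6.69) and Lrrc56, the neighbour of Hras (0.91), and none of the 43 choroid plexus genes. The choroid plexus genes were lower in knockout for 38 of 43, with a median of -0.31 against 0.0024 for all genes, and the lowest adjusted p among them was 0.9999. APP/PS1 female 2, with 2894 CPM of Ttr, is 1 of the 6 APP/PS1 libraries.

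With log2 Ttr as a covariate, the median genotype difference of the choroid plexus genes was 0.04, with 23 higher and 20 lower, and their median standard error was 0.346, against 0.662 without it. The ratio of the standard errors, with over without the covariate, had a median of 0.537 for the choroid plexus genes and of 1.03 for both the motile cilia genes and all genes. It was under 1 for 39 of 43 choroid plexus genes, 14 of 44 motile cilia genes and 3824 of 17306 genes. The ratio was under 0.5 for 20 of the 43, against 26 of all genes. For Mfrp the standard error was 0.393 with the covariate and 1.75 without it, and for F5 0.341 and 1.60. The same 3 genes were called (0.0173%), and since these genes were known to follow Ttr, the shrinkage is a description.

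**Figure D5:**
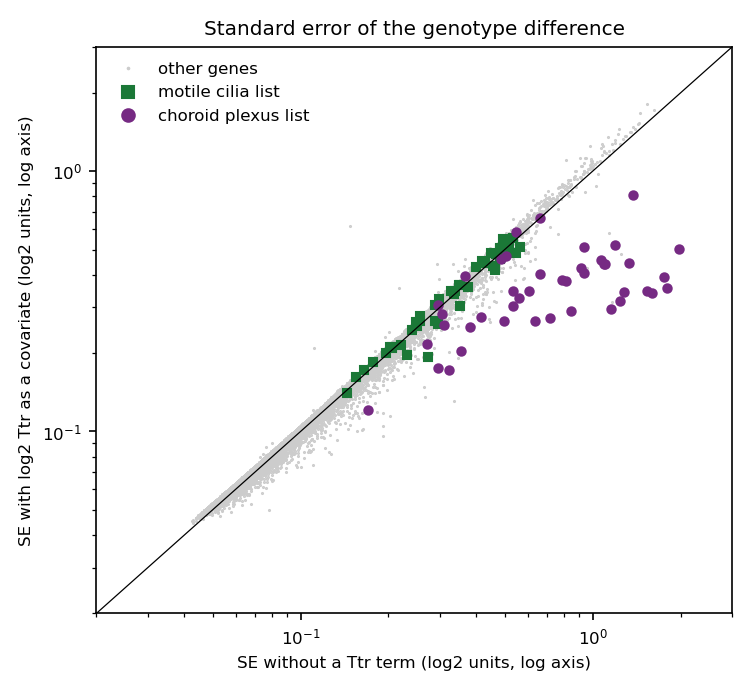
Standard error of the genotype log2 difference with log2 Ttr as a covariate (y) against the standard error without it (x), both on log axes, 1 point per gene, with the line of equality. Of the choroid plexus genes (purple), 39 of 43 lie under the line, with a median ratio of 0.537, and motile cilia genes (green) lie along it, at 1.03.

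Within the Ttr-rich libraries, 3 knockout and 2 APP/PS1, 2 genes (0.0116%) were called for genotype, Hras (-2.18, SE 0.094, adjusted p = 2.57e-07) and Gm5905 (6.51, SE 0.30, adjusted p = 5.41e-07, edgeR). Hras stood at 20.9, 20.5 and 19.1 CPM in the 3 knockout libraries and at 101 and 81.3 CPM in the 2 APP/PS1 libraries. Lrrc56 had 8.67, 11.1 and 8.64 CPM in the 3 knockout libraries and 5.36 and 4.70 CPM in the 2 APP/PS1 libraries, and missed the threshold (0.90, SE 0.16, adjusted p = 0.138). It passed with DESeq2 (adjusted p = 0.00364), without the filter (0.00546), with RIN as a covariate (0.0312), at a Ttr cutoff of 30 CPM (0.046) and without knockout female 2 (0.049). Within the 7 others 3 genes (0.0173%) were called, Hras, Gm5905 and Lrrc56 (0.97, SE 0.12, adjusted p = 0.0254). The call of Lrrc56 was lost with any of 7 single libraries left out, at adjusted p between 0.0752 and 0.27, and at a Ttr cutoff of 30 CPM (adjusted p = 0.335).

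The difference between the 2 genotype effects was called for none of 17307 genes (0%), with 2183 genes at an unadjusted p under 0.05 and a lowest adjusted p of 0.0647, while DESeq2 called 262. For Lrrc56 the difference was -0.07 (SE 0.20, adjusted p = 0.912). For choroid plexus genes the lowest adjusted p was 0.131, for the claudin Cldn1, whose genotype difference was -1.64 (SE 0.45) within the Ttr-rich and 1.33 (SE 0.40) within the other libraries. All 43 choroid plexus genes were lower in knockout within the Ttr-rich libraries, with a median of -0.82, against 9099 of 17306 genes and a median of -0.01 over all genes, and none was called there. The count of calls rests on the setting. Without APP/PS1 male 1, 12 of the 43 were called, against 22 of all genes tested (0.125%). With RIN as a covariate it was 17, against 614 of all genes (3.55%), and without the filter on low counts 20, against 782 (2.51%). The 2 APP/PS1 libraries behind this contrast are the ones with the most and the least Ttr of the 5.

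In a fit of the 7 other libraries alone, 5 of 18155 genes (0.0275%) were called. Besides Hras and Gm5905 these were Gm13394 (7.54), Dnah6 (1.98, SE 0.19, adjusted p = 0.00605) and Fam234b (-0.64, adjusted p = 0.0188). Dnah6, an axonemal dynein heavy chain on the motile cilia list, stood at 8.83, 10.2 and 8.06 CPM in the Ttr-rich knockout libraries, at 0.530 CPM in APP/PS1 male 1 and at 13.3 CPM in APP/PS1 female 2. In the 7 others it was at 7.55 to 18.5 CPM in knockout and 1.85 to 3.97 CPM in APP/PS1 libraries. Gm13394, a processed pseudogene on chromosome 2, was at 136, 145 and 158 CPM in the Ttr-rich knockout libraries, at 1.59 CPM in APP/PS1 male 1 and at 134 CPM in APP/PS1 female 2. Fam234b was at 242, 273 and 246 CPM in the Ttr-rich knockout libraries, at 321 CPM in APP/PS1 male 1 and at 198 CPM in APP/PS1 female 2. In the 7 others it was at 182 to 211 CPM in knockout and 278 to 332 CPM in APP/PS1 libraries. APP/PS1 female 2 thus lay nearer to the knockout libraries for these 3 genes, and with the APP/PS1 libraries for Hras and Gm5905. Of the motile cilia members, 70.5% lay above all 7 others in APP/PS1 female 2, against 18.4% of all genes. For Dnah6, this rise and a likeness to the knockout libraries cannot be told apart.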

How the data were processed

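The authors deposited raw counts per Ensembl gene for 12 libraries, made with the TruSeq Stranded mRNA kit per the labels. Per the submitters' processing notes, the tools included HISAT2 2.1.0, featureCounts, FastQC 0.11.7 and Trimmomatic 0.33, and the builds were mm10 and mm9, with no role or order stated for any of them. No source used here states the annotation, strand setting or treatment of multi-mapping reads. Counts of overlapping genes (Mfrp and C1qtnf5, Kcnj13 and Gigyf2, Otx2 and Otx2os1, Folr1 and Anapc15, 1500015O10Rik and Gm29155) are therefore uncertain. Totals ran from 13984692 to 20174131. Symbols came from GENCODE M21 (GRCm38). Of 54532 genes 37 had no match (0.00986% of counts), and 31149 had a count.

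CPM used the column total. Descriptions used log2(CPM + 0.5). Genotype was tested with edgeR 4.0.16 (R 4.3.3, TMM, robust quasi-likelihood fits, filterByExpr over genotype and sex, 17307 genes, Benjamini-Hochberg threshold 0.05), with sex as a term, in all libraries and in a model of 4 Ttr by genotype means with 1 shared spread. Standard errors came from the F statistic. Labels do not say that replicates were separate litters, so p-values measure the spread between these mice. Replicate numbers only name libraries. On simulated counts, changes of 100 genes at each of 2 sizes were tested as a check. Alternatives covered RLE scaling, filters, DESeq2 1.42.0, RIN and Ttr covariates, Ttr cutoffs, priors and each library left out.

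The members and lists were chosen with earlier results of these data known. Named genes were Hras, genes called for genotype, list members by role with the highest mean CPM, the non-overlapping genes in no list with the largest differences (mean of 1 CPM or more), and the 10 closest followers of Ttr. The remaining list members, the genes called in the 7 other libraries alone and the 2-fold higher genes in no list were chosen after their values were seen. Lists for the subventricular zone, hippocampus, and thalamus and habenula had medians of -0.07, -0.07 and -0.04.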

Additional observations from a re-analysis of the deposited data

Results flagged for a closer look

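Of 92 sets of libraries examined for a value far from the rest of its own group, 13 held one. Chance gives about 1 in 20 for a single set. The sets share libraries and hold genes that vary together with Ttr, on which the groups were chosen. The 13 are therefore not compared with that rate. In the Ttr-rich libraries APP/PS1 male 1 was set apart by its RIN of 7.8. APP/PS1 female 2 was set apart above the other 4 Ttr-rich libraries for 10 choroid plexus genes. Its levels were 30.7 CPM for Slc29a4 and 16.4 CPM for Slc2a12, both transporters, 85.2 CPM for Htr2c and 86.3 CPM for Ace. For matrix, keratin and other genes they were 27.4 CPM for Col8a2, 52.9 CPM for Col9a3, 3.11 CPM for Krt8, 5.35 CPM for Krt18, 118 CPM for Vat1l and 10.8 CPM for Wdr86. Among the 7 other libraries, knockout female 3, which had the least Ttr, was set apart by a low Clic6 of 1.32 CPM, and knockout male 1 by a high Prlr of 4.12 CPM.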

How the results depend on the processing

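No called result changed direction under the alternatives run. Calls for genotype, 3 in the report, were 7 with DESeq2, 5 without a filter on low counts, 5 without the 5 Ttr-rich libraries and 3 to 4 with 1 library left out. Within the Ttr-rich libraries, 2 calls became 113 with DESeq2, 782 without the filter, 614 with RIN as a covariate and 2 to 67 with 1 library left out. Within the others, 3 became 17, 382, 5 and 2 to 13 in the same order. For the difference of the effects, 0 became 262, 1131, 843 and 0 to 574, and 3 at a Ttr cutoff of 30 CPM. The highest counts came without knockout female 2 (67, 13 and 574). Without APP/PS1 male 1 they were 22, 8 and 12, without APP/PS1 female 1 the difference gave 12 and without APP/PS1 female 2 the others gave 8. Where 1 APP/PS1 library was left in the Ttr-rich group, it is assumed to vary like the rest. These counts depend on the setting, and the cause was not tested. Genes at least 2-fold higher without overlap, 8 in the report, were 25 at a Ttr cutoff of 300 CPM and 6 to 26 with 1 library left out, highest without APP/PS1 male 1, and genes at least 2-fold lower without overlap, 0 in the report, were 0 to 1. Genes following Ttr, 9 in the report, were 21 on residuals after genotype and sex and 7 to 20 with 1 library left out, highest without APP/PS1 male 1. The choroid plexus median of 0.97 ran from 0.588 without APP/PS1 female 2 to 1.22, the cilia median from -0.128 to 0.137, the RIN difference from -0.0393 to 0.186 and the total count difference from -1379200 to -347600. No paired analysis was made, because each library came from a different mouse and the labels give no pairing of mice.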

Other observations

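Some choroid plexus list members were also high in a library with little Ttr. Knockout male 1, with 9.82 CPM of Ttr, had the highest levels of the 7 other libraries for Slc29a4 (20.2 CPM), Htr2c (53.9 CPM), Vat1l (90.9 CPM) and Car12 (32.7 CPM). Trh, the thyrotropin-releasing hormone gene, stood at 18.1 CPM in APP/PS1 female 2, 15.5 CPM in knockout male 1 and 10.9 CPM in APP/PS1 female 1, and at 2.06 CPM or less in the remaining 9 libraries. Nnat stood at 284 and 273 CPM in APP/PS1 female 2 and knockout male 1, and at 170 CPM in APP/PS1 female 1. These genes were chosen after their values were seen, and no comparison was made with them.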
